A study of Campylomormyrus compressirostris and Campylomormyrus rhynchophorus and Campylomormyrus compressirostris x Campylomormyrus rhynchophorus with 15 samples.

Results

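In the electric organ of juvenile weakly electric fish, 56 of 34492 gene models were expressed in *com* (*Campylomormyrus compressirostris*) and nearly absent in *rhy* (*Campylomormyrus rhynchophorus*). They were chosen on group means of TPM, which are read counts corrected for the length of the gene model and scaled to a fixed library total. A member had a *com* mean of at least 1 TPM, an expected count of at least 5 in every *com* fish, a *rhy* mean under 0.1 TPM and a hybrid mean of at most 1.5 times the *com* mean. Models printed in the study's gene tables were left out, and since fewer than 150 models remained, all 56 were kept. These levels in *com* and *rhy* are therefore a description of the choice and were not tested.

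RNA was sequenced from the electric organ of 15 fish, 1 library per fish. The groups were 5 fish of each species and 5 F1 hybrids, whose father was *com* and whose mother was *rhy*, with no treatment named, bred artificially and labelled with a body length of 6 cm. Fish carry the names of the labels, where comrhy marks a hybrid. Reads of all 15 fish, *rhy* and hybrids included, were mapped to a genome of *com*, and how far that lowers the counts of *rhy* alleles was not tested.

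The electric organ of these fish derives from skeletal muscle. Its cells, the electrocytes, are large and flat, are driven by a motor nerve, and use voltage-gated ion channels to produce the electric organ discharge. An F1 hybrid carries 1 allele of each parent at every autosomal gene. Where each allele keeps the level it has in its own species, a gene that is silent in 1 parent stands in the hybrid at 0.5 of the level of the other parent. In bulk tissue, fewer cells of a type and less RNA per cell cannot be told apart.

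The *com* libraries held 8346594 to 11549627 counts, those of *rhy* 12502127 to 13927972 and those of the hybrids 12973363 to 19259314. The labels name no sequencing batch. All groups expressed *SCN4AA*, a sodium channel of muscle and electric organ, at 1094 to 2215 TPM in the *com* fish, 372 to 527 in *rhy* and 1092 to 1534 among hybrids. *KCNA7A_1*, a potassium channel, was at 1293 to 1722 TPM in *com*, at 319 to 460 among hybrids and at 40.1 to 71.3 in *rhy*. *TMOD4*, a tropomodulin of striated muscle, was at 447 to 927 TPM in *rhy*, below the 1082 to 1447 of the other fish. The sum of 5 markers of other cell types was 72.5 to 117 TPM in the *com* fish, 1664 to 1936 in *rhy* and 374 to 613 among hybrids. The sum was carried by *SYNGR3*, a synaptic vesicle protein (17.9 to 35.1 TPM in *com*, 796 to 972 in *rhy*), and *CD34*, a surface protein of endothelium and progenitors (43.8 to 75.7 and 775 to 1051). *TYRP1*, an enzyme of pigment cells, was at 0.16 to 1.68 TPM in *com* and 19.5 to 53.5 in *rhy*, while *LCP1* was lower in *rhy*. *LCP1*, an actin-bundling protein of leukocytes, was at 6.49 to 14.8 TPM in the *com* fish, 0 to 0.55 in *rhy* and 0 to 15.6 among hybrids. *SIGLEC1*, a macrophage receptor, was at or near 0 in all fish (at most 1.1 TPM). The markers thus differed in direction between *com* and *rhy*, and their part in the levels of the members was not tested. All of them were taken from the study's gene tables. Those tables list genes for a change in expression or in allele share, in data that include these fish. The markers are therefore no neutral measure of the make-up of the tissue.

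The step from *com* to *rhy* was rare among the gene models. Of 14802 models that met both limits in *com*, 62 (0.419%) had a *rhy* mean under 0.1 TPM. Of these, 2 lay above the cap on the hybrids and 4 carried a printed name. The named ones were *PDE6A*, a catalytic subunit of the cGMP phosphodiesterase of rod photoreceptors, *WDHD1*, a protein of DNA replication, *TRIM39*, an E3 ubiquitin ligase, and *KIAA1257*. *PDE6A* stood at 5.7 TPM in *com*, 0.09 in *rhy* and 0.79 in the hybrids. The 56 members have no gene name in the sources used here and are given by the identifier of the model.

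Levels in *com* ran from 1.06 to 80.6 TPM with a median of 5.01, against a median of 13.1 over the 14802 models. In all, 16 members reached 10 TPM, 26 lay between 2 and 10 and 14 below 2. Summed over the members, *com* reached 478 ± 42.1 TPM (SD, n = 5 fish). The hybrids reached 158 ± 45.0 (SD, n = 5) and *rhy* had 1.19 ± 0.532 (SD, n = 5). Single fish ranged from 425 to 525 TPM in *com*, from 0.48 to 1.92 in *rhy* and from 94.2 to 199 in the hybrids, so the groups did not overlap, which the choice fixes for *com* and *rhy*.

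**Figure D1:**
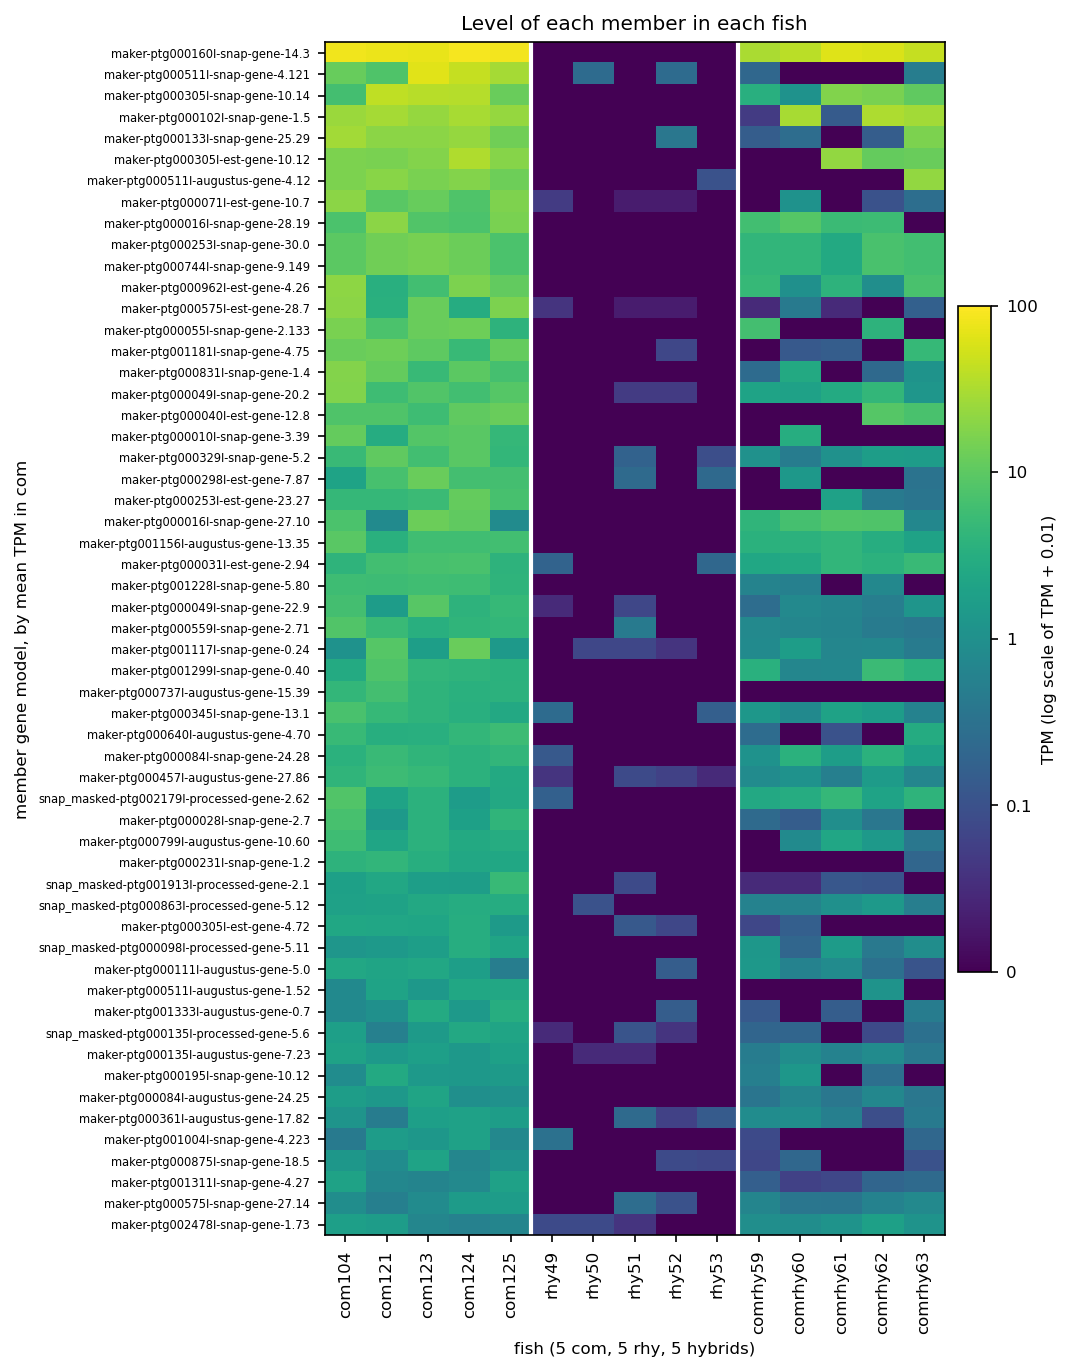
Level of the 56 members (rows, ordered by their mean in *com*) in each of the 15 fish (columns), as TPM on a log scale of TPM + 0.01, with white lines between the 5 *com*, 5 *rhy* and 5 hybrid fish and "est" short for est_gff_est2genome in the identifiers. The *rhy* columns are at or near 0 throughout, and in the hybrid columns many rows are dark in some fish and bright in others.

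The *rhy* values were at the edge of detection. In all 5 *rhy* fish, 27 members had no count at all, and the other 29 had a count, estimated over all 5 fish together, of 1 to 10.01 (median 2.85). No single *rhy* fish exceeded a count of 6. Between 5 members (rhy50) and 13 members (rhy51 and rhy52) reached a count of 1 in a fish. Folds here are ratios of summed counts scaled by library totals. For the 27 members at 0, a floor of 3 counts over the group put *com* at least 15.3-fold to at least 1551-fold higher, with a median of these bounds of 64.2. For the 29 members with a count, the ratio of *com* to *rhy* was 15.2 to 1214 with a median of 122.6. The largest summed count in *rhy* belonged to maker-ptg000345l-snap-gene-13.1, with 6 in rhy49, 4 in rhy53 and 0.01 in rhy51. It had 47.19 to 158.15 counts in *com*, and *com* was 57.3 times higher on counts scaled by library totals, with a 95% interval of 30.9 to 120.5, which covers counting error only.

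maker-ptg000160l-snap-gene-14.3 had the highest level of the members in *com*, no count in *rhy* and an intermediate level in the hybrids. Its TPM was 81.8, 76.7, 72.5, 88.1 and 83.7 in com104, com121, com123, com124 and com125. In the hybrids comrhy59 to comrhy63 it was 31.6, 39.0, 63.3, 58.7 and 43.8. All 5 hybrids lay below all 5 *com* fish, and the group means were 80.6 ± 6.10 (SD, n = 5) and 47.3 ± 13.4 (SD, n = 5), a ratio of 0.587. No read was counted in any *rhy* fish, against 529 to 815 counts in each *com* fish, which puts *com* at least 1551-fold higher.

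maker-ptg000511l-snap-gene-4.121 followed another course, with hybrids near *rhy*. Its counts were 44, 28, 182, 131 and 88 in the *com* fish and 1, 0, 0, 0 and 3 in the hybrids, and 2 of the *rhy* fish had 1 count each. The mean TPM was 31.9 ± 24.3 (SD, n = 5) in *com* and 0.096 in *rhy*, and the hybrids had 0.14 ± 0.216 (SD, n = 5). They thus stood at 0.00439 of *com* in TPM, and at 0.00164 without comrhy63. On counts scaled by library totals *com* was 187 times higher (95% counting interval 72.5 to 689).

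Over the 56 members, the hybrid mean was 0.247 of the *com* mean at the median, with quartiles of 0.0839 and 0.415 and a range of 0 to 1.13. The rule capped this ratio at 1.5 and set no lower limit. Over all 14802 models the median was 1.11 with quartiles of 0.886 and 1.37, a shift of 0.15 on the log2 scale between hybrids and *com*. With other scalings of the libraries, TMM and DESeq2 size factors, the median over these models was 0.994 and 0.979. The shift was thus found in TPM and not on those scales. In TPM the *rhy* mean also lay above *com* at the median of these models, at 1.08, and other scales were not computed for *rhy*. Relative to the 1.11, the members lay at 0.222 of the models' median. In all, 28 members lay under 0.25 of *com*, where 1.21% of the 14802 models lay. Another 25 lay between 0.25 and 0.75, a range that held 13.9% of the models, and 3 lay above. Fish by fish, the median ratio of the members was 0.125, 0.148, 0.132, 0.169 and 0.183 in comrhy59 to comrhy63, while that of all models was 0.985 to 1.16.

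**Figure D2:**
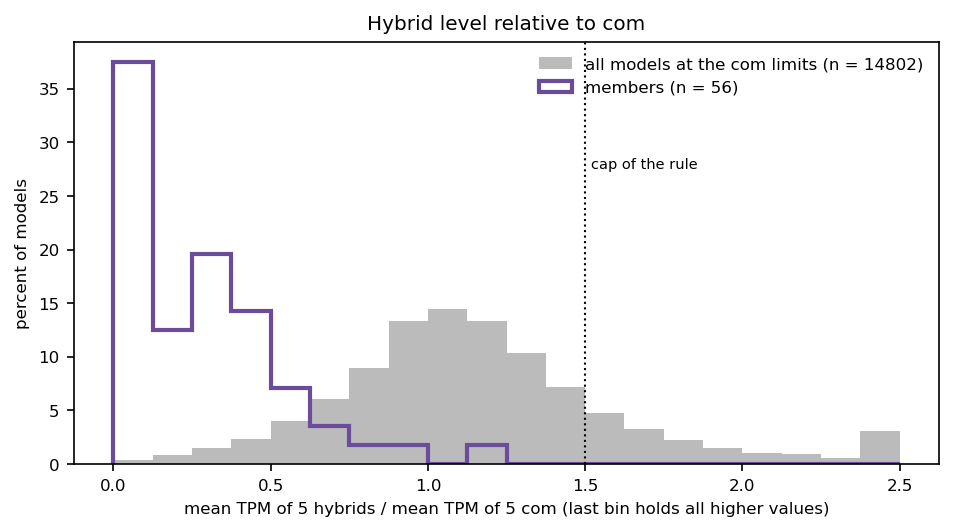
Distribution of the hybrid mean over the *com* mean (x axis, ratio of TPM, in steps of 0.125) as percent of models (y axis), for the 56 members (purple line) and the 14802 models at the *com* limits (grey). The members pile up in the lowest bins with a median of 0.247, the grey distribution centres on 1.11, and the dotted line marks the cap of the rule at 1.5.

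In 32 members every hybrid lay below every *com* fish, which held for 5.02% of the 14802 models. In the other 24 the groups overlapped, and no member had every hybrid above every *com* fish (11.4% of the models). These comparisons were made on TPM, where the hybrids stood at 1.11 of *com* at the median of the 14802 models. They were not repeated on other scales. Across all genes tested in edgeR (quasi-likelihood test with Benjamini-Hochberg adjustment, calls at an adjusted p below 0.05 with a log2 fold change past 1), 54 of the 56 members passed the filter on low counts. Of these 54, 31 were called lower in the hybrids than in *com*, where 4.42% of 18489 genes were. None was called higher (background 4.66%), none was higher at an unadjusted p under 0.05, and DESeq2 called 0. Compared with *rhy*, 41 members were called higher in the hybrids (background 7.64%) and 0 lower (background 4.45%, 0 at an unadjusted p under 0.05). Since the rule took models that are high in *com*, low in *rhy* and capped in the hybrids, nothing is read from these counts. The 2 members that did not pass the filter were maker-ptg000305l-est_gff_est2genome-gene-10.12 and maker-ptg000253l-est_gff_est2genome-gene-23.27, with at most 11 and 16 counts in a fish.

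At the low end, 6 members had a hybrid mean under 0.1 TPM and 9 had a ratio under 0.05. maker-ptg000737l-augustus-gene-15.39 was the 1 member without a count in any hybrid, with 24, 33, 15.96, 15 and 17 counts in the *com* fish and 0 in every *rhy* fish. Its *com* mean was 4.38 TPM, and the floor of 3 counts puts *com* at least 55.3-fold above the hybrids. snap_masked-ptg001913l-processed-gene-2.1 had 63.56, 79.19, 42.41, 44.53 and 134.86 counts in *com* and 1, 0.96, 4.39, 4.6 and 0 in the hybrids, a ratio of 0.0197. It thus had a count above 0 in 4 of 5 hybrids, though only 0.96 in comrhy60, and each was far below the lowest *com* fish.

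At the high end, 3 members had a ratio above 0.75. They were maker-ptg002478l-snap-gene-1.73 (1.13), snap_masked-ptg002179l-processed-gene-2.62 (0.889) and maker-ptg000016l-snap-gene-27.10 (0.851). The last of them shares reads with the member maker-ptg000016l-snap-gene-28.19, and the ratio for the sum of both was 0.581. maker-ptg000031l-est_gff_est2genome-gene-2.94 had a lower ratio than these 3 members as single models and was counted in every hybrid. It had 77, 115, 99, 109 and 62 counts in *com* and 60, 74, 100, 103 and 170 in the hybrids. In TPM the means were 5.57 ± 1.59 (SD, n = 5) and 3.65 ± 1.15 (SD, n = 5), a ratio of 0.655 with overlapping groups. *rhy* had 4 counts in rhy49, 5 in rhy53 and 0 in the other fish. maker-ptg000102l-snap-gene-1.5 had nearly the same ratio, 0.683, from fish that fell apart into 2 kinds. Its counts were 1, 804, 3, 859 and 884 in comrhy59 to comrhy63, against 322 to 532 in *com*. comrhy60, comrhy62 and comrhy63 thus stood at 27.4 to 32.1 TPM, close to the 23.05 to 30 TPM of the *com* fish, while comrhy59 and comrhy61 stood at 0.04 and 0.13.

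Such splits among hybrids of the same cross were frequent among the members. A model was called split when at least 1 hybrid had a count under 1 and at least 1 a count of 20 or more. This held for 12 of 56 members (21.4%). They were set beside 11676 models whose means in *com* and in the hybrids were no higher than the highest of the members. That set includes the 56 members, and 46 of it (0.394%) were split. A second set of 1861 models had a hybrid mean at or under 0.75 of *com* and a *rhy* mean of at least 0.1 TPM. Their hybrid mean was also no higher than the highest of the members. Of these 1861, 28 (1.505%) were split. Neither set was matched to the low hybrid levels of the members, and how far low counts add to the splits was not tested. maker-ptg000102l-snap-gene-1.5, with a lowest count of 1, is not among the 12, and with an absence limit of under 5 the count was 15. Without comrhy63, the hybrid library with the largest total (19259314 counts), 7 members were split. The limits for a split were not scaled for library totals.

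maker-ptg000511l-augustus-gene-4.12 was present in a single hybrid. Its counts were 0, 0, 0, 0 and 549.49 in comrhy59 to comrhy63. In *com* it had 160.92 to 271.16 counts in every fish, and in *rhy* 1.61 counts in rhy53 and 0 elsewhere. The level in comrhy63, 22.2 TPM, was above that of all *com* fish (13.2 to 19.4 TPM). The ratio of the hybrid mean to *com*, 0.267, rested on this fish alone and was 0 without it. maker-ptg000010l-snap-gene-3.39 was present in comrhy60 only, with 41 counts, and maker-ptg000511l-augustus-gene-1.52 in comrhy62 only, with 20.73. maker-ptg000640l-augustus-gene-4.70 had 46 counts in comrhy63 and at most 3 in the other hybrids, and maker-ptg001181l-snap-gene-4.75 had 161.51 in comrhy63 and at most 3.4 in the others.

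Other members were present in several hybrids. maker-ptg000040l-est_gff_est2genome-gene-12.8 had 47 and 44 counts in comrhy62 and comrhy63 and 0 in the other hybrids, at 8.91 and 6.97 TPM against 5.73 to 12.0 in *com*. maker-ptg000055l-snap-gene-2.133 was found in comrhy59 (72.32 counts) and comrhy62 (47.11 counts) and had 0 in the rest. maker-ptg000799l-augustus-gene-10.60 was at 0 in comrhy59 and at 7 to 30 counts in the others. maker-ptg000016l-snap-gene-28.19 was the reverse of most: 70.9 to 141.17 counts in 4 hybrids and 0 in comrhy63. The set of fish in which a split member was high thus changed from member to member. The highest hybrid was comrhy60 for 4 of the 12, comrhy63 for 4, comrhy62 for 2, and comrhy59 and comrhy61 for 1 each. These are not all separate cases. Of those highest in comrhy60, maker-ptg000071l-est_gff_est2genome-gene-10.7 and maker-ptg000575l-est_gff_est2genome-gene-28.7 share reads with each other, and maker-ptg000016l-snap-gene-28.19 shares reads with another member.

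**Figure D3:**
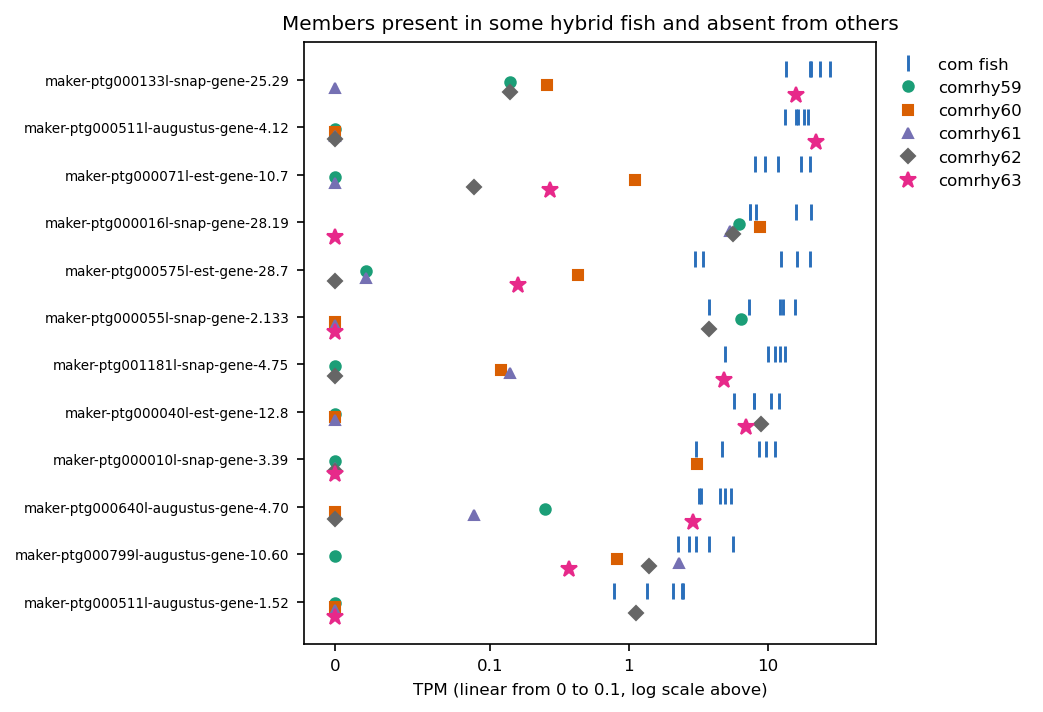
TPM (x axis, linear from 0 to 0.1 and log above) of the 12 members that were split among the hybrids (rows), with 1 symbol per hybrid fish and blue ticks for the 5 *com* fish. In most rows a single hybrid or a pair lies near the *com* ticks and the rest lie at or near 0, and which fish this is differs between rows.

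The coefficient of variation (SD over mean) among the hybrids had a median of 0.768 over the members and 0.182 over the 14802 models. Among the *com* fish the medians were 0.412 and 0.227. Neither of these comparisons was matched on counts, and the members had lower levels in *com* than the 14802 models at the median. For the 44 members that were not split, the median among the hybrids was 0.606. Of these, 22 had a mean hybrid count between the quartiles of 2.35 and 37.9, with a median of 0.567, against 0.386 for 1593 other models in that count range. Counts were not matched within the range, and how far low counts add to this spread was not tested. maker-ptg001117l-snap-gene-0.24 had the widest spread in *com*, with 31, 239, 36, 271 and 34 counts, so that com121 and com124 stood well above the other 3 fish. Its hybrids had 22 to 69 counts and its *rhy* fish at most 2. maker-ptg000016l-snap-gene-27.10 also split the *com* fish, with 75.21, 7.8, 94.94, 86.82 and 7.08 counts, and had 53.84, 94.83, 98.1, 114.13 and 12 in the hybrids. It shares reads with maker-ptg000016l-snap-gene-28.19, and the sum of both was 154 to 230 counts in the *com* fish.

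Expected counts are fractional where reads match several gene models and are divided between them. In at least 1 *com* fish 26 members (46.4%) had a fractional count, against 7.64% of the 14802 models. For 14 members (25%) a second model was found whose counts, added to those of the member, gave a whole number within 0.02 in at least 80% of the fish with a fractional count. The search could succeed only in models with fractional counts in at least 4 fish, which were 23 members (41.1%) and 985 of the 14802 models (6.65%). Among these a second model was found for 14 of 23 (60.9%) and 731 of 985 (74.2%). The search was made after the values had been seen. It cannot find a similar model that shares no reads.

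For 4 of these members the second model lay outside the members and was expressed in *rhy*. maker-ptg000055l-snap-gene-2.133 (1771 bases) shared reads with maker-ptg000407l-snap-gene-7.75 (1777 bases), which had 167, 230, 253, 254 and 249 counts in *rhy*, where the member had 0. In *com* the second model had 26.44, 65.76, 0, 0 and 67 counts beside 139.56, 62.24, 80, 91 and 28 of the member. The sum of both was 80 to 166 counts in the *com* fish, 167 to 254 in *rhy* and 196 to 242 among hybrids. In the sum no split was left, since comrhy60, comrhy61 and comrhy63, without the member, had 241, 241 and 242 counts of the second model.

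maker-ptg000133l-snap-gene-25.29 shared reads with maker-ptg000130l-snap-gene-9.0, a model of the same length of 1423 bases. The member had 193, 133.27, 100, 128 and 76.94 counts in *com*, 2.85 in rhy52 and 0 in the other *rhy* fish. The second model had 99 to 162 counts in *rhy*, 0 in com104, com123 and com124, and 58.73 and 39.06 in com121 and com125. In the hybrids the member had 1.19, 2.49, 0, 1.35 and 183.75 counts, and the second model had 207.81, 220.51, 161, 177.65 and 146.25. The ratio of hybrids to *com* for the member was 0.157, and 0.0064 without comrhy63. In TPM the sum stood at 24.3 in *com*, 16.0 in *rhy* and 22.9 in the hybrids.

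The other 2 pairs were of equal length too. maker-ptg000231l-snap-gene-1.2 and maker-ptg000222l-snap-gene-9.11 (2620 bases each) together had 33 to 93 counts in the *com* fish, 19 to 45 in *rhy* and 65 to 118 among hybrids. In the hybrids the member held 4.64 counts in comrhy63 and 0 in the rest, and com104 and com123 had only the member. maker-ptg000511l-augustus-gene-1.52 and maker-ptg000275l-augustus-gene-12.37 (2480 bases each) together had 13 to 45, 13 to 32 and 30 to 43 counts in the same order of groups. For these 4 members the near absence in *rhy* thus held for the model and not for the pair. Whether the models of a pair are alleles, copies or repeats of the assembly was not tested.

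**Figure D4:**
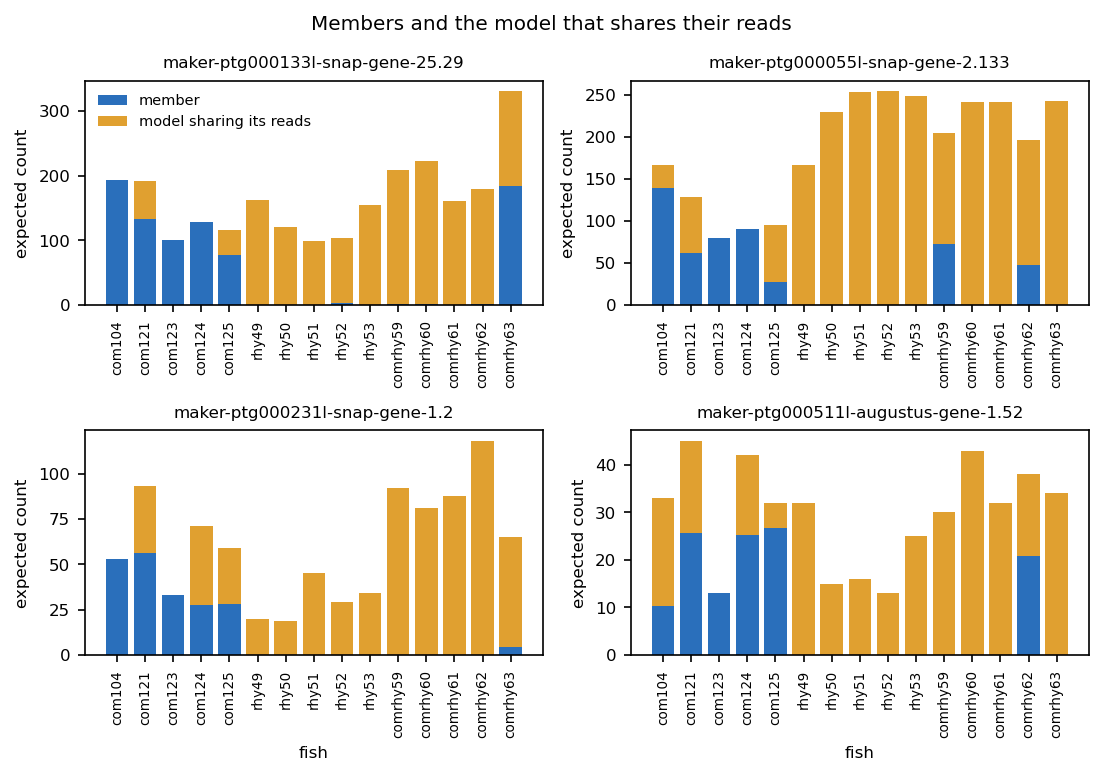
Expected counts (y axis) of 4 members (blue) and of the model that shares their reads (orange), stacked, in each of the 15 fish (x axis). The blue part is found mainly in *com* and in 1 or 2 hybrids, the orange part fills all *rhy* fish, and the stacked height is 13 counts or more in every fish.

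Another 8 members paired among themselves, and these pairs were low in *rhy* as sums too. maker-ptg000071l-est_gff_est2genome-gene-10.7 (7064 bases) and maker-ptg000575l-est_gff_est2genome-gene-28.7 (7066 bases) together had 350 to 1607 counts in the *com* fish, 0 to 3 in *rhy* and 1, 88, 1.03, 5 and 29 in the hybrids. The sum in the hybrids was 0.0172 of that in *com*. maker-ptg000016l-snap-gene-28.19 and maker-ptg000016l-snap-gene-27.10, on the same contig, were uneven in *com* as single models but together had 160, 230, 164, 154 and 158 counts. No *rhy* fish had a count of this pair, and the hybrids had 144, 236, 169, 204 and 12, so comrhy63 was low for the pair. maker-ptg000253l-snap-gene-30.0 and maker-ptg000744l-snap-gene-9.149 (507 bases each) had identical counts in every fish and together 18 to 39 in the *com* fish, 0 in *rhy* and 9 to 28 among hybrids.

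The last pair of members was maker-ptg000049l-snap-gene-22.9 with maker-ptg000135l-augustus-gene-7.23, at 117 to 323 counts in the *com* fish, 0 to 4 in *rhy* and 39 to 109 among hybrids. For the remaining 2 members with a second model, its *rhy* mean was 0.268 TPM (beside maker-ptg000084l-snap-gene-24.28) and 0.002 TPM (beside snap_masked-ptg000135l-processed-gene-5.6). Summing each member with its second model could change only the 14 members that had one, and all others entered unchanged. After it, 51 of the 56 met the limits of the rule on the means. Those that no longer met them were the 4 members whose second model was expressed in *rhy*, and maker-ptg000084l-snap-gene-24.28, with a summed *rhy* mean of 0.292 TPM. With these sums the median ratio of hybrids to *com* over the 56 was 0.275, and 6 members were split in place of 12. Of the 6 splits that went, those of the pair of 7064 and 7066 bases did so narrowly, since its lowest hybrid had a count of 1. All 6 split members with a second model thus lost the split. The other 6 had no second model, so the sum could not change them. They were maker-ptg000511l-augustus-gene-4.12, maker-ptg001181l-snap-gene-4.75, maker-ptg000040l-est_gff_est2genome-gene-12.8, maker-ptg000010l-snap-gene-3.39, maker-ptg000640l-augustus-gene-4.70 and maker-ptg000799l-augustus-gene-10.60.

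Most sections with a member held only that 1 member. The identifiers name the contig and a numbered section of it, which is read here as a stretch of neighbouring models, since the files hold no positions. The 56 members lay on 46 contigs in 53 sections, 3 of which held 2 members. Of the contigs, 8 held 2 or more members, with at most 3 on a contig. No background was computed for these counts. The 3 sections with 2 members lay on ptg000511l, ptg000305l and ptg000084l. The first held maker-ptg000511l-snap-gene-4.121, which was nearly absent from all hybrids, and maker-ptg000511l-augustus-gene-4.12, which was present in comrhy63 alone. Another member on ptg000511l, maker-ptg000511l-augustus-gene-1.52, lay in a different section, as did maker-ptg000305l-est_gff_est2genome-gene-4.72 on ptg000305l. On ptg000305l, maker-ptg000305l-snap-gene-10.14 had 26, 165, 111, 116.24 and 42 counts in *com* and 17, 6, 84, 89 and 73 in the hybrids. Its neighbour maker-ptg000305l-est_gff_est2genome-gene-10.12, a model of 298 bases at 5 to 11 counts in *com*, had 0, 0, 9, 5 and 6 in the hybrids, so both were lowest in comrhy59 and comrhy60. On ptg000084l, maker-ptg000084l-snap-gene-24.28 and maker-ptg000084l-augustus-gene-24.25 stood at 0.566 and 0.342 of *com* in the hybrids, and both were highest in comrhy60 and comrhy62 in TPM.

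Other models in the sections of the members were mostly expressed in *rhy*. Models at the *com* limits and near 0 in *rhy* were nearly all taken as members, so the others can hardly be that low. Among the 14802 models, 6 such models are no members. Of 144 other models that met the *com* limits, 101 (70.14%) had a *rhy* mean that reached at least 0.5 of *com*, a share of 86.7% over all 14802 models. In 13 (9.03%) *rhy* was under 0.1 of *com*, against 1.55% of all models, so neighbours with low *rhy* levels were more frequent than over all models, with no test. The hybrids stood at 0.939 of *com* at the median of the 144, against 1.11 over all 14802 models. Of the 53 sections, 39 held another model at the *com* limits, and 34 of these had at least 1 with *rhy* at 0.5 of *com* or more.

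**Figure D5:**
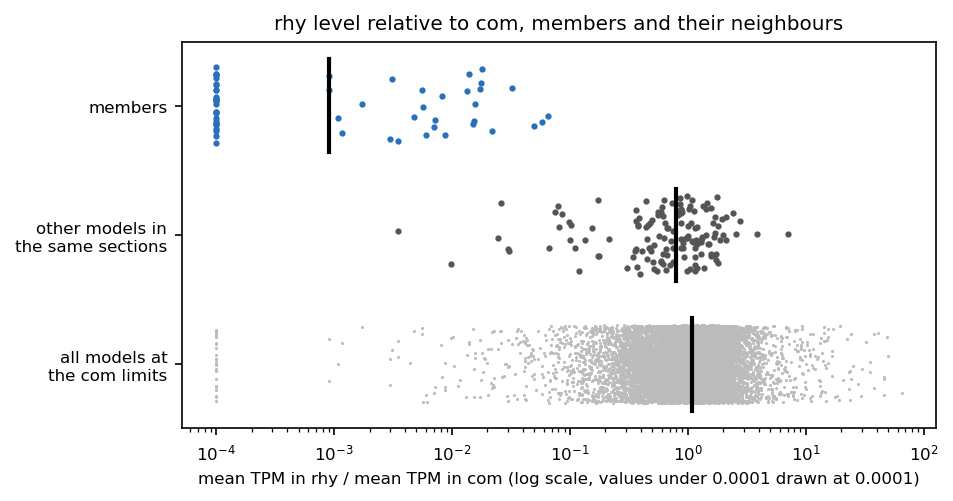
Mean TPM in *rhy* over mean TPM in *com* (x axis, log scale, values under 0.0001 drawn at 0.0001) for the 56 members, the 144 other models of their sections and the 14802 models at the *com* limits, with 1 point per model and black bars at the medians. The neighbours centre on 0.789, below the 1.08 of all models, with a tail towards low values. Models near 0 in *rhy* were taken as members and so are missing among the neighbours.

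The gene finders behind the models were as follows. Of the 56, 9 (16.1%) came from transcript alignments (est2genome), against 2.03% of the 14802, and 12 (21.4%) from Augustus, against 31.4%. SNAP models with MAKER support made up 53.6% and 56.7%, and models from SNAP alone 8.93% and 9.85%. The median length was 2179.5 bases (298 to 7554), close to the 2342 of all models. Members with a fractional count in *com* had a median ratio of hybrids to *com* of 0.179, against 0.275 for the 30 members with whole counts, and 8 of 26 and 4 of 30 were split.

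The models on both sides of each limit of the rule were as follows. On the *com* mean, the last member was maker-ptg002478l-snap-gene-1.73 at 1.06 TPM, which also had the highest hybrid ratio of 1.13, and the first model outside was maker-ptg001563l-snap-gene-5.215 at 0.842. On the *rhy* mean, maker-ptg000511l-snap-gene-4.121 was inside at 0.096 TPM and maker-ptg000853l-augustus-gene-1.17 outside at 0.102. On the count, a member with a lowest *com* fish of 5 faced maker-ptg000021l-est_gff_est2genome-gene-26.73 at 4. Above the cap lay maker-ptg000710l-augustus-gene-1.44 with a ratio of 1.71.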

How the data were processed

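Electric organ RNA of 15 juvenile fish was used, 1 library per fish. After trimming with Trimmomatic (version 0.39), the authors used RSEM to map reads to the *com* genome and count them per gene model, and the aligner within RSEM is not given in the sources used here. The deposited expected counts are not normalized, and the deposited TPM are scaled by effective length and library. The deposited FPKM were not used. Libraries were stranded and poly(A)-selected. Library totals were 8346594 to 19259314 counts, and 0 columns of other samples were found.

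Group means and ratios were computed on TPM. Expected counts were rounded, filtered to a count above 10 in at least 2 libraries (18489 of 34492 models), scaled by TMM and tested in edgeR (version 4.0.16) with the quasi-likelihood test and Benjamini-Hochberg adjustment in 1 fit of 3 groups. The steps were tested on simulated data. DESeq2 (version 1.42.0), other scalings, limits and left-out libraries were alternatives. Of 159 identifiers in the study's tables, 151 matched a model exactly, and 7 models within 1 character of an unmatched identifier were left out too. Named are the 6 members highest in *com*, the 3 with the highest and the 3 with the lowest hybrid ratio among those with a mean count of at least 50 in *com*, 4 split members, 3 with the widest *com* spread, 2 with the largest *rhy* counts and those sharing a section. Other members named were chosen after their values were seen. The members and lists were chosen with earlier results of these data known. Labels give 1 fish per library, and p-values measure the spread between these fish. Python (version 3.11.15) with pandas (version 2.3.3) and matplotlib (version 3.10.9) made summaries and plots. Within a group, counts of any pair of libraries had a chi-square per degree of freedom of 20.3 to 140, so none was a copy.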

Additional observations from a re-analysis of the deposited data

Results flagged for a closer look

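In 4 of 34 groups of 5 fish (17 named members in *com* and in the hybrids) 1 fish stood apart by Dixon's limit of 0.71. Chance flags about 1 in 20 groups, but this rate does not apply here, since some members were named for a split among the hybrids or a wide spread in *com*. Both members flagged in comrhy63 were named as split. maker-ptg000133l-snap-gene-25.29 was at 15.99 TPM and maker-ptg000511l-augustus-gene-4.12 at 22.15 TPM in comrhy63, with the other hybrids at or near 0. maker-ptg000305l-est_gff_est2genome-gene-10.12 was at 33.55 TPM in com124, at 11 counts, and snap_masked-ptg001913l-processed-gene-2.1 at 4.88 TPM in com125.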

How the results depend on the processing

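There were 85 members at a *rhy* limit of 0.2 TPM and 150, the largest number the rule allows, without the limit on counts in *com*, of which 39 were among the 56. Leaving out single fish gave 56 to 68 members. The median hybrid ratio was 0.221 on TMM-scaled CPM, 0.219 with DESeq2 size factors, 0.196 from group medians, 0.279 without the split members, 0.275 in members with whole counts and 0.275 summed with the model that shares reads (the last 3 chosen after seeing the data). It was 0.196 (without comrhy62) to 0.254 with single fish left out. Split members numbered 6 with a presence limit of 50 counts, 6 when summed with the model that shares reads, and 7 (without comrhy63) to 11 with single hybrids left out. The sums could change only the 14 members for which such a model was found. In a fit of *rhy* and hybrids alone, 27 members were called higher in the hybrids, since only 30 were then tested. All other results, 93 values in all, stayed within 1.5 times the main count or 1 SD. The 204 ratios of named members stayed within 1 SD between fish, a wide margin, and 7 of them moved by over 1.5 times when 1 fish was left out. Without comrhy63 these were maker-ptg000511l-augustus-gene-4.12 (0.267 to 0), maker-ptg000133l-snap-gene-25.29 (0.157 to 0.0064) and maker-ptg000511l-snap-gene-4.121 (0.00439 to 0.00164). The others were maker-ptg000040l-est_gff_est2genome-gene-12.8 without comrhy62 (0.360 to 0.197), maker-ptg000305l-est_gff_est2genome-gene-10.12 without comrhy61 (0.450 to 0.283), maker-ptg000575l-est_gff_est2genome-gene-28.7 without comrhy60 (0.0115 to 0.00456) and maker-ptg001117l-snap-gene-0.24 without com124 (0.173 to 0.266). Low counts in *rhy* limit the folds, and 2 members were too low to test. No paired analysis was possible because the groups share no replicate numbers. The genome used was that of *com*, and its part in the results was not tested.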

Other observations

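With the limits mirrored, 48 models were expressed in *rhy* and nearly absent in *com*. Their hybrid mean was 0.347 of the *rhy* mean at the median, against 0.996 over 15050 models at the same limits in *rhy*. Of the 48, 7 (14.6%) were split among the hybrids by the same limits, and 20 (41.7%) had a fractional expected count in a *rhy* fish. The difference from the 56 members in *com* was not tested.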
